A study of Homo sapiens with 6 samples.

Results

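ABHD4 is a serine hydrolase of the alpha/beta hydrolase fold family, and its transcript was followed here together with those of 8 other enzymes that make or break down N-acylethanolamines and the related signalling lipid 2-arachidonoylglycerol. The 9 genes were taken from the deposited table by symbol (ABHD4, NAPEPLD, GDE1, GDPD1, FAAH, NAAA, MGLL, ABHD6 and ABHD12), and each had 1 row among the 34371 features. ABHD4 was selected on its fold change between the SPNS2 and empty vector libraries of these data, so its own values are given as a description without a test. The other 8 were named for their place in the pathway, with earlier results of these data known. The cells were ME-1, a line from a patient with acute myeloid leukaemia and known for its CBFB::MYH11 fusion gene, transduced with a vector that overexpresses SPNS2 (3 libraries) or with the empty vector (3 libraries) and then selected. SPNS2 exports the lipid mediator sphingosine-1-phosphate. By the labels, both groups therefore share the line, the transduction and the selection, and differ by the SPNS2 insert. If the libraries of a group came from a common transduced pool, differences between the pools cannot be told apart from the insert. The labels give no time after transduction, and they do not tie replicate libraries to separate cultures. The p-values then describe variation among these samples alone, and that variation may be technical.

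N-acylethanolamines are fatty acid amides that include anandamide, which activates cannabinoid receptors, and palmitoylethanolamide, which activates the nuclear receptor PPAR alpha. They are stored in membranes as N-acyl phosphatidylethanolamine (NAPE). NAPE-specific phospholipase D, encoded by NAPEPLD, releases them directly. In an alternative route known mainly from mouse tissues, ABHD4 strips the fatty acids from the glycerol of NAPE and the phosphodiesterase GDE1 then frees the N-acylethanolamine, while GDPD1 acts on the intermediate that still carries a fatty acid. FAAH and the lysosomal amidase NAAA end the signal. 2-Arachidonoylglycerol, the other main ligand of cannabinoid receptors, is hydrolysed chiefly by MGLL and also by ABHD6 and ABHD12.

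The ABHD4 transcript starts on the plus strand of chromosome 14, and the next protein-coding gene on its left, DAD1, starts on the minus strand, so that the starts face away from each other. Their promoter windows are shown because ABHD4 had the large difference and DAD1 was the neighbour that also rose (values further down). Each window runs from 250 bases before to 50 after the start, as RefSeq gives it on GRCh38.p14, and capitals mark matches to the GC box letters GGGCGG on either strand.
ABHD4, chr14:22598050-22598349, plus strand: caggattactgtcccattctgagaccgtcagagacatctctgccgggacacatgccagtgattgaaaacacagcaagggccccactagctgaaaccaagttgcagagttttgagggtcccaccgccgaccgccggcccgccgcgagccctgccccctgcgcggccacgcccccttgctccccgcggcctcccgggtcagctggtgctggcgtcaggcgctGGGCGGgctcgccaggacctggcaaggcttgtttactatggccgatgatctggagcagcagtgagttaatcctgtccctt
DAD1, chr14:22589175-22589474, minus strand: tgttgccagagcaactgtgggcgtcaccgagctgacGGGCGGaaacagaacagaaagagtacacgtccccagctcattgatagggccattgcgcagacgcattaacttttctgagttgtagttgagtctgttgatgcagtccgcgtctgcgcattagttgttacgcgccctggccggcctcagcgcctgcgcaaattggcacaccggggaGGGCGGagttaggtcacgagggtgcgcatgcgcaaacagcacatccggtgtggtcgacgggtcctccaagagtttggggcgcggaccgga
The ABHD4 window held 1 GC box, beginning at base -30, and the DAD1 window held 2, beginning at bases -214 and -40. GC boxes occur in 45% of the 35116 promoter windows of this length, so their presence is common. Neither window held the AP-1 letters TGANTCA (7.71% of windows) or the cyclic AMP response element TGACGTCA (1.85%), searched on both strands. The same held for the letters CCGGAA (17.2%), an extended form of the ETS site, and for the E-box CACGTG (7.26%). Other forms of these sites, including ETS sites with other letters, were not searched, so their absence is not shown. RefSeq windows were matched for 6 of the 9 genes.

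Library totals ran from 31361562 to 33540256 counts with SPNS2 and from 28605187 to 38489992 counts with the empty vector. The vector SPNS2 row averaged 777 ± 12.9 CPM (counts scaled to 1000000 per library, with TMM-adjusted totals) in SPNS2 cells and 0.113 ± 0.117 CPM in empty vector cells (SD, n = 3 each). The native SPNS2 row was at 50.5 ± 1.80 CPM with SPNS2 and 42.6 ± 1.92 CPM with the empty vector (SD, n = 3 each), a rise with a log2 fold change of 0.25 (edgeR, adjusted p = 0.00166). All 8 markers of myeloid leukaemia cells were above 1 CPM, and 2 of them rose, 2 fell and 4, MPO among them, did not pass. KIT, the stem cell factor receptor, rose by 0.55 and PTPRC, which encodes CD45, by 0.26 on the log2 scale, while CD33 fell by 0.71 and CD34 by 0.25 (edgeR, adjusted p 3.68e-08, 0.00056, 2.45e-06 and 0.000397 in that order). The summed myeloid level was 27800 to 29300 CPM with SPNS2 and 28000 to 28400 CPM with the empty vector. Of 12 markers of fibroblasts, epithelium and T cells, 1 was above 1 CPM, EPCAM, which rose by 0.19 (adjusted p = 0.00137 by edgeR). The summed epithelial level, nearly all of it EPCAM, was 141 to 143 CPM with SPNS2 and 119 to 128 CPM with the empty vector, while KRT5 and KRT19 were at 0 counts. The fibroblast and T cell sums were at most 0.216 and 1.08 CPM, with LUM at 0. The T cell marker CD3E had 28, 29 and 30 counts with SPNS2 and 15, 17 and 16 counts with the empty vector, and rose by 0.87 (adjusted p = 0.0298 by edgeR), a call held in 5 of 12 alternatives and lost with DESeq2 (adjusted p = 0.121), with the replicate block (0.0574) and without any single library other than empty vector library 2 (0.0723 to 0.109). The part of these markers in the results that follow was not tested. Over the whole table, edgeR called 24.5% of 13308 features at an adjusted p of 0.05, 11.9% as higher and 12.6% as lower in SPNS2 cells. The groups did not overlap for 40.1%.

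ABHD4 (ENSG00000100439.10), the NAPE hydrolase, was about 3 times as abundant in SPNS2 cells. It stood at 109, 113 and 108 CPM in the 3 SPNS2 libraries, against 35.9, 35.6 and 33.3 CPM in the 3 empty vector libraries. The groups were far apart beside the spread within each: the ratio of a SPNS2 library to an empty vector library lay between 3.01 and 3.40 for every pair. The means were 110 ± 2.72 CPM with SPNS2 and 34.9 ± 1.41 CPM with the empty vector (SD, n = 3 each), a gain of 75.3 CPM. The fitted log2 fold change was 1.66 (SE 0.0373), the 24th largest of the 13308 features tested. Among the 8809 features with at least 10 CPM in empty vector cells it was the largest, since all features with a larger log2 fold change were below that level. ABHD4 was selected for its rise, so these ranks follow from the choice and only describe it. In level, ABHD4 lay above 87.5% of tested features in SPNS2 cells and above 61.1% in empty vector cells. In these bulk samples, a change in every cell and a change in the share of cells that express the gene cannot be told apart. GENCODE 29 lists an antisense gene over ABHD4 exons that has no row among those analysed here, and the sources used here do not say whether counting used strand.

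**Figure D1:**
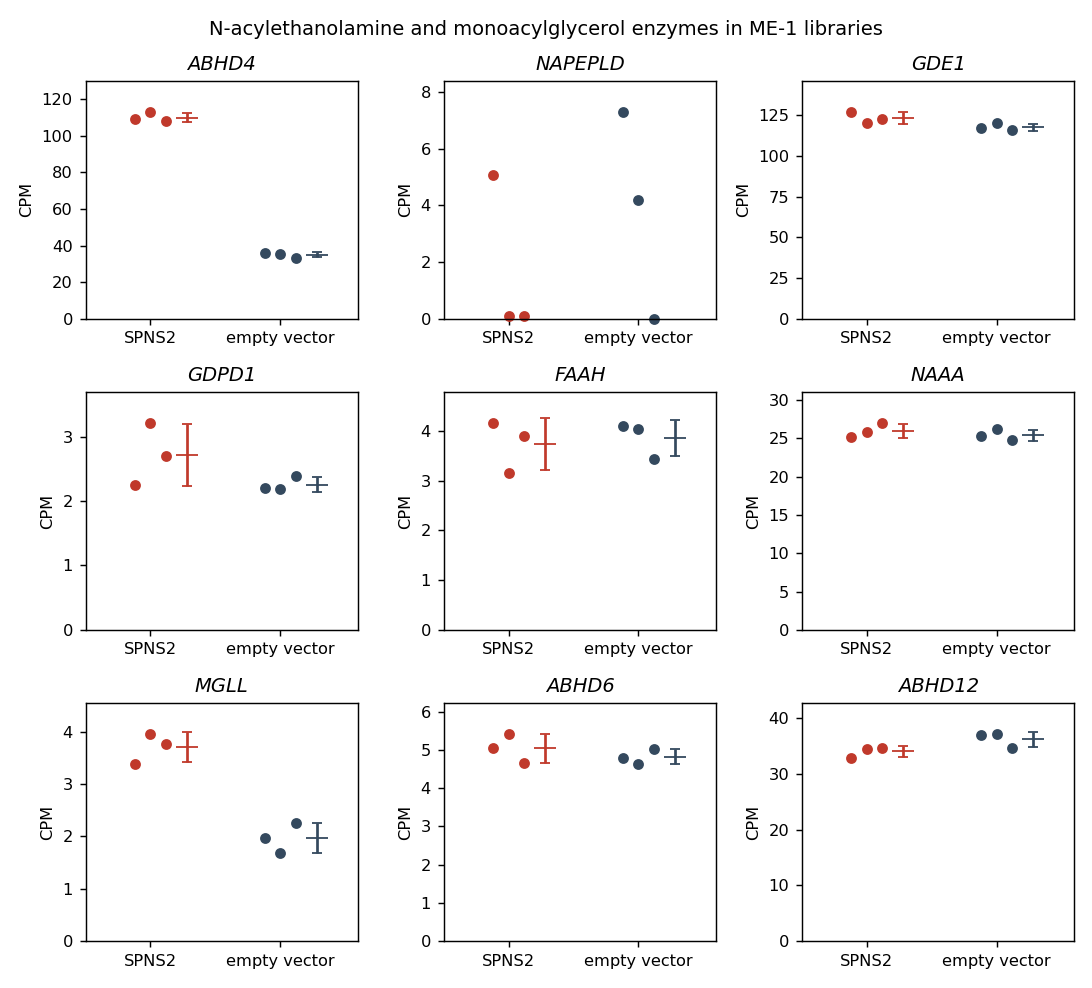
Level of each of the 9 transcripts in CPM (vertical axes, linear, from 0), with 1 point per library, SPNS2 libraries on the left and empty vector libraries on the right, and mean ± SD (n = 3) beside the points except for NAPEPLD. ABHD4 and MGLL separate the groups, whereas NAPEPLD lies between 0 and 7.29 CPM within the empty vector group alone.

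NAPEPLD (ENSG00000161048.12), which encodes the phospholipase D that acts on the same substrate as ABHD4, was low and erratic. The SPNS2 libraries held 164, 3 and 3 counts, against 281, 119 and 0 counts in the empty vector libraries. As levels these were 5.06, 0.0955 and 0.0889 CPM with SPNS2 and 7.29, 4.18 and 0 CPM with the empty vector. Each group thus held libraries above 4 CPM and libraries at or near 0, and the groups overlapped. The cause of this spread was not tested, and the counts may not follow the true level of the transcript. A count of 0 at the depth of empty vector library 3 allows up to 0.0924 CPM by counting error alone, well below the values of the other empty vector libraries. The log2 fold change was -1.15 with a 95% interval of -3.64 to 1.35 (adjusted p = 0.513 by edgeR), which leaves its direction unresolved. Single libraries decided this value: it was -5.33 without SPNS2 library 1 (adjusted p = 0.0458), -0.60 without SPNS2 library 2, -0.58 without SPNS2 library 3, -0.23 without empty vector library 1 and -1.72 without empty vector library 3.

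The phosphodiesterases that act after ABHD4 did not pass the test. GDE1 (ENSG00000006007.12), the enzyme that frees the N-acylethanolamine from the product of ABHD4, was at 127, 120 and 123 CPM with SPNS2 and 117, 120 and 116 CPM with the empty vector. These libraries overlapped, and the difference of 0.07 on the log2 scale had a 95% interval up to 0.14 (adjusted p = 0.144 by edgeR). GDPD1 (ENSG00000153982.11), which cleaves the lyso form, was scarce in every library, at 2.25, 3.21 and 2.70 CPM with SPNS2 and 2.20, 2.18 and 2.39 CPM with the empty vector. Its interval was wider, from -0.08 to 0.61 around a log2 fold change of 0.27 (adjusted p = 0.250 by edgeR). On the opposite strand, GENCODE 29 places noncoding genes over GDE1 exons, for which no row was analysed here.

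The amidases that break down N-acylethanolamines did not pass either. NAAA (ENSG00000138744.16), the lysosomal enzyme that prefers palmitoylethanolamide, was at 25.2, 25.8 and 27.0 CPM with SPNS2 and 25.3, 26.2 and 24.8 CPM with the empty vector. Its log2 fold change of 0.03 had a 95% interval of -0.07 to 0.14 (adjusted p = 0.663 by edgeR), so a change as large as that of MGLL lay outside the interval. Some exons of NAAA overlap SDAD1 on the same strand in GENCODE 29, and reads there can be counted for either gene. FAAH (ENSG00000117480.16), the main anandamide hydrolase of brain and liver, was at 4.16, 3.15 and 3.91 CPM with SPNS2 and 4.10, 4.04 and 3.44 CPM with the empty vector. These values were interleaved, with a log2 fold change of -0.04 and a 95% interval of -0.34 to 0.26 (adjusted p = 0.852 by edgeR).

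Among the hydrolases of 2-arachidonoylglycerol, MGLL (ENSG00000074416.15) rose. This gene encodes monoacylglycerol lipase, a serine hydrolase that releases arachidonic acid and glycerol. It had 110, 124 and 127 counts in the SPNS2 libraries, against 76, 48 and 73 counts in the empty vector libraries. In CPM it stood at 3.39, 3.95 and 3.77 with SPNS2 and at 1.97, 1.69 and 2.26 with the empty vector. Every SPNS2 library exceeded every empty vector library, although all 6 levels were low. The log2 fold change was 0.90 (SE 0.145, 95% interval 0.58 to 1.22, adjusted p = 0.00115 by edgeR), and the call held in all 12 alternatives tried. ABHD6 (ENSG00000163686.15), a membrane hydrolase that faces the cytosol, was at 4.65 to 5.41 CPM with SPNS2 and at 4.63 to 5.03 CPM with the empty vector. ABHD12 (ENSG00000100997.20), which also degrades lysophosphatidylserine, was at 32.9, 34.5 and 34.7 CPM with SPNS2 and at 36.9, 37.1 and 34.7 CPM with the empty vector. Neither passed, with log2 fold changes of 0.06 (95% interval -0.17 to 0.29) for ABHD6 and -0.09 (95% interval -0.18 to 0.00) for ABHD12. Whether the change of MGLL differs from those of ABHD6 and ABHD12 was not tested.

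**Figure D2:**
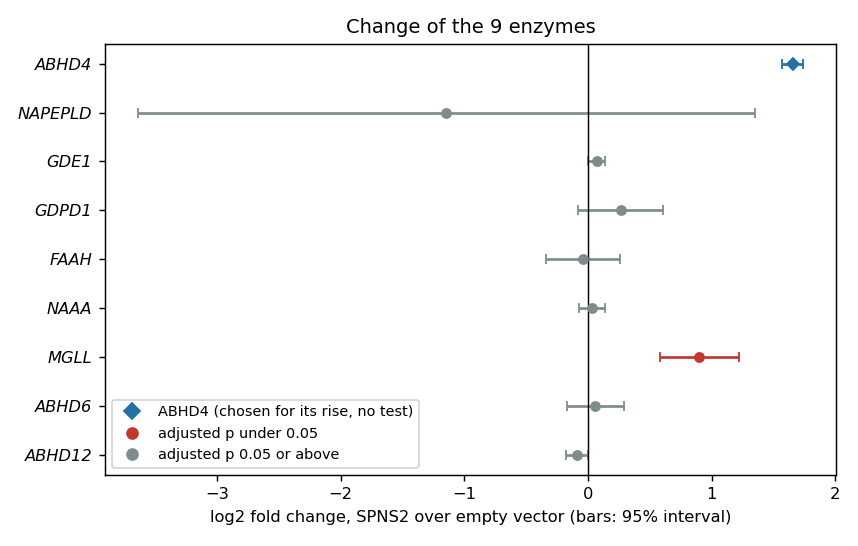
Log2 fold change of the 9 transcripts (horizontal axis, SPNS2 over empty vector, bars are 95% intervals of the edgeR fit with 3 libraries in each group). MGLL at 0.90 passed the test, ABHD4 at 1.66 is shown without a test, and the interval of NAPEPLD runs from -3.64 to 1.35.

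Of the 8 transcripts other than ABHD4, all had enough counts to be tested, and 1 rose, none fell and 7 did not pass. That is 12.5% called, beside 24.5% of all tested features. Their median log2 fold change was 0.05, and the median over all features was 0.003. The groups did not overlap for MGLL, which makes 1 of 8 beside 40.1% of all features.

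**Figure D3:**
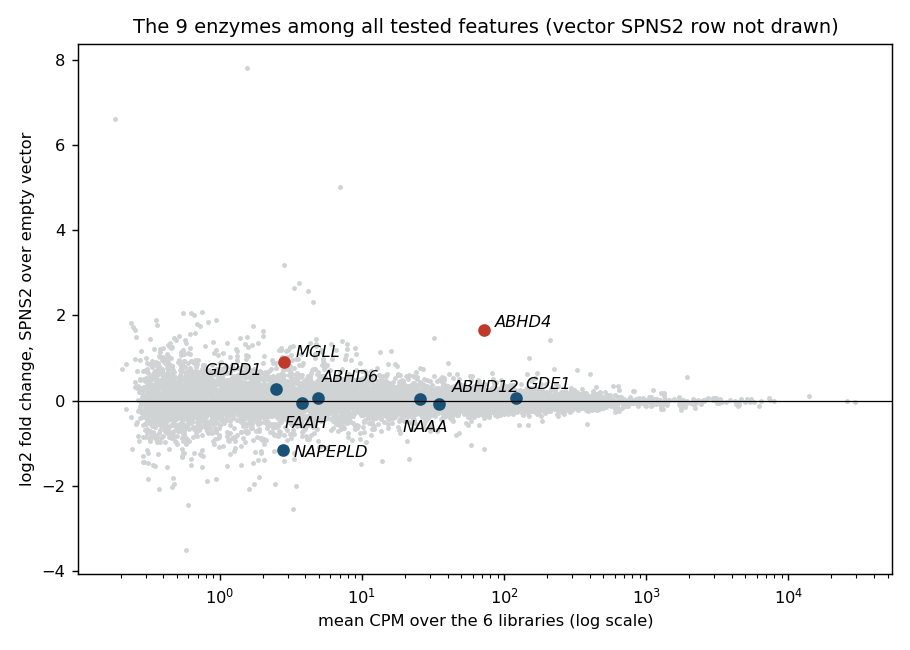
Each tested feature by mean CPM over the 6 libraries (horizontal, log scale) and log2 fold change, SPNS2 over empty vector (vertical), with the 9 enzymes labelled and ABHD4 and MGLL in red. ABHD4 at 1.66, chosen for its rise, lies above the cloud of features of similar level, and 6 of the 9 lie within 0.3 of zero change.

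Levels of different genes were compared per length, as counts divided by the longest GENCODE 29 transcript of each gene and scaled to 1000000 per library. On this per-length scale GDE1 led both groups, at 98.8 ± 2.86 with SPNS2 and 93.3 ± 2.12 with the empty vector (SD, n = 3 each). ABHD4 came second in SPNS2 cells at 77.4 ± 1.86 and at 24.3 ± 1.30 in empty vector cells lay behind GDE1, ABHD12 and NAAA. By mean, the per-length order below these was ABHD6, FAAH, GDPD1, MGLL and NAPEPLD in SPNS2 cells, and the same with NAPEPLD above MGLL in empty vector cells. The libraries of ABHD6 and FAAH overlapped in both groups on this scale, and those of FAAH and GDPD1 overlapped with SPNS2. The place of NAPEPLD differed between libraries: it lay above MGLL in SPNS2 library 1 (2.39 for NAPEPLD and 1.62 for MGLL), and below it in empty vector library 3 (0 for NAPEPLD and 1.06 for MGLL). With the median length of coding transcripts in place of the longest, ABHD4 ranked first in SPNS2 cells and second in empty vector cells, so the order of ABHD4 and GDE1 depends on the length used. For ABHD4 the median was 590 bases and the longest 3366, and for GDE1 they were 1620 and 2958. Its first rank thus rests on a median far shorter than its longest transcript. The lower ranks depend on it too: with the median length MGLL moved to rank 6 and FAAH to rank 8 in SPNS2 cells, and in empty vector cells NAPEPLD moved to rank 7 and GDPD1 to rank 8.

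Shares within each step, on the per-length scale with the longest transcripts, describe which enzyme's mRNA was the main one. At the NAPE step ABHD4 made up 97.0%, 99.9% and 99.9% of the sum of ABHD4 and NAPEPLD with SPNS2, against 88.0%, 92.7% and 100% with the empty vector. By these counts ABHD4 was the main transcript of this step in both groups, and the spread among empty vector libraries came from NAPEPLD. These shares are only as reliable as the erratic NAPEPLD counts. NAAA made up 88.5% ± 1.54 of the amidase sum with SPNS2 and 87.9% ± 0.842 with the empty vector (SD, n = 3 each). Among the monoacylglycerol hydrolases, MGLL made up 3.97% ± 0.194 with SPNS2 and 2.06% ± 0.352 with the empty vector, and ABHD12 made up 85.3% ± 0.808 with SPNS2 and 87.9% ± 1.01 with the empty vector (SD, n = 3 each). MGLL remained the smallest of the 3 on this scale in both groups.

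Other genes of the pathway were followed as a list of 26 that holds acyltransferases, further enzymes, carriers and receptors. Of these, 14 had enough counts to be tested, 2 rose, 1 fell and 11 did not pass. The 21.4% called lies near the 24.5% of all features, and the median log2 fold change was 0.13. DAGLB, a diacylglycerol lipase that makes 2-arachidonoylglycerol, was at 107, 109 and 112 CPM with SPNS2 and 82.9, 87.0 and 81.7 CPM with the empty vector. Its libraries did not overlap, and it rose by 0.38 on the log2 scale (SE 0.0334; edgeR, adjusted p = 2.38e-05). Its paralog DAGLA, the main synthase of 2-arachidonoylglycerol in neurons, was at 33.1 ± 0.881 CPM with SPNS2 and 33.6 ± 0.977 CPM with the empty vector (SD, n = 3 each; log2 fold change -0.02, 95% interval -0.11 to 0.07).

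Acyltransferases that make NAPE were scarce in ME-1 cells. PLAAT4, a phospholipase and acyltransferase also known as an interferon- and retinoid-responsive gene, had 45, 56 and 51 counts with SPNS2 and 26, 28 and 32 counts with the empty vector, and rose by 0.83 on the log2 scale (SE 0.217; edgeR, adjusted p = 0.0170). Leaving out empty vector library 1 gave an adjusted p of 0.0590, and leaving out SPNS2 library 2 gave 0.0705, so the call did not hold there. For PLAAT5 the log2 fold change was -0.87, with an adjusted p of 0.169 in edgeR. PLA2G4E, the calcium-dependent acyltransferase, had 11 counts over the 6 libraries, PLAAT2 had 38, PLAAT3 had 22 and PLAAT1 had 0. FABP5, a fatty acid binding protein that can carry anandamide inside cells, was at 115, 108 and 106 CPM with SPNS2 and 122, 123 and 138 CPM with the empty vector, and fell by 0.22 on the log2 scale (SE 0.0490; edgeR, adjusted p = 0.00824). FABP7 was at 0 counts and FABP3 had 9.

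Receptors for these lipids did not pass the test: 0 of the 6 tested were called, beside 24.5% of all features. With so few genes, this does not set them apart from the other features. CNR1, the cannabinoid receptor of the nervous system, had 3 counts in all SPNS2 libraries together and 0 in all empty vector libraries. CNR2, the cannabinoid receptor of immune cells, was at 1.37 ± 0.147 CPM with SPNS2 and 1.21 ± 0.331 CPM with the empty vector (SD, n = 3 each). PPARA, the nuclear receptor for palmitoylethanolamide, was the most abundant in CPM, at 34.8 ± 1.44 with SPNS2 and 32.6 ± 0.865 with the empty vector (SD, n = 3 each; log2 fold change 0.09; edgeR, adjusted p = 0.139). The libraries of PPARD and TRPV1 did not overlap between groups, with log2 fold changes of 0.36 (adjusted p = 0.0612) and 0.19 (adjusted p = 0.114 by edgeR). That is 2 of the 6 tested receptors, beside 40.1% of all features. TRPV1 is an ion channel opened by anandamide. GPR55 was at 1.19 CPM with SPNS2 and 1.16 CPM with the empty vector, and PPARG at 0.445 CPM with SPNS2 and 0.365 CPM with the empty vector. GPR18 and GPR119 had 8 and 9 counts over the 6 libraries, too few to test.

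**Figure D4:**
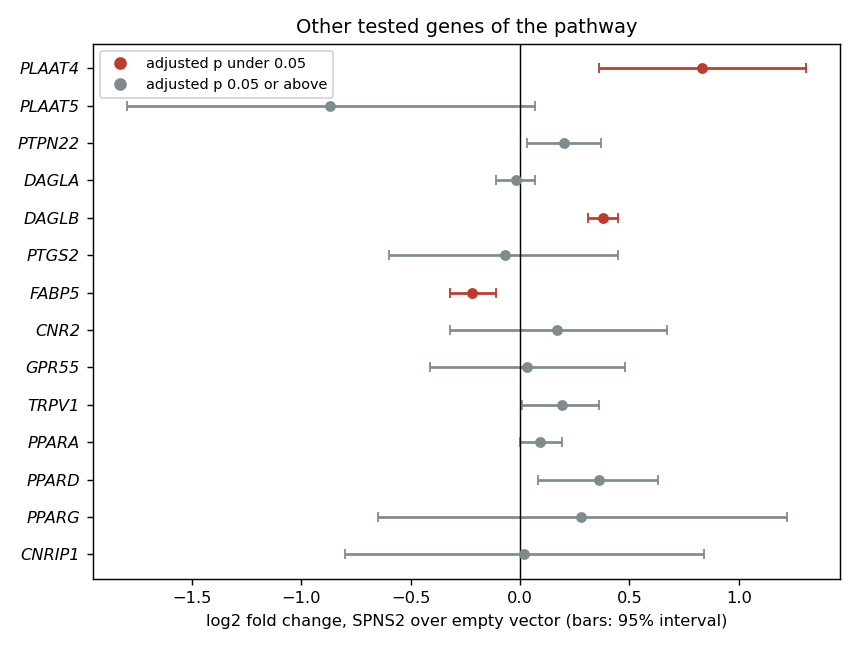
Log2 fold change of the 14 other pathway genes that could be tested (horizontal axis, SPNS2 over empty vector, bars are 95% intervals with 3 libraries in each group). PLAAT4 at 0.83 and DAGLB at 0.38 rose, FABP5 at -0.22 fell, and the 6 tested receptors did not pass. Over all features, 24.5% were called.

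Of the 20 other ABHD genes, 19 were tested, 3 rose, 2 fell and 14 did not pass, which is 26.3% called beside 24.5% of all features, with a median log2 fold change of 0.01. ABHD5, the closest relative of ABHD4 and an activator of triglyceride lipase, was at 10.8 ± 0.348 CPM with SPNS2 and 12.3 ± 0.891 CPM with the empty vector (SD, n = 3 each; log2 fold change -0.19; edgeR, adjusted p = 0.0884). ABHD14B, a lysine deacetylase, rose by 0.19 on the log2 scale, to 126 ± 0.812 CPM with SPNS2, against 110 ± 4.52 CPM with the empty vector. ABHD12B rose by 1.48 (SE 0.329) from very few reads, with 28, 18 and 23 counts in SPNS2 libraries against 11, 8 and 6 counts in empty vector libraries. It passed the low-count filter only through the SPNS2 libraries, where it is high. Its call is therefore a description, and the 3 that rose and the 26.3% called include it. DESeq2 gave ABHD12B no adjusted p and so did not call it, and it passed in the other 11 alternatives (adjusted p 0.00396 to 0.0441). ABHD8 rose by 0.22, ABHD11 fell by 0.29 and ABHD17C, which removes palmitate from proteins, fell by 0.18. The call of ABHD8 ended when SPNS2 library 2 (adjusted p = 0.0612) or 3 (0.0551) was left out, and that of ABHD11 when SPNS2 library 1 (0.0534) or 3 (0.0535) or empty vector library 2 (0.0800) was left out. Without empty vector library 1, ABHD5 was called lower (adjusted p = 0.0371), and ABHD17B was called higher in 4 alternatives (adjusted p 0.0309 to 0.0456). In the family of GDE1, GDPD5 fell by 0.24 (adjusted p = 0.0125 by edgeR, but 0.0570 with DESeq2), and GDPD2, GDPD3 and GDPD4 had too few counts to test.

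The 4 protein-coding genes on each side of ABHD4 in RefSeq order were followed next. DAD1, a subunit of the oligosaccharyltransferase that attaches glycans to proteins, lies directly beside ABHD4. It was at 96.2, 98.7 and 97.9 CPM with SPNS2 and at 64.2, 69.9 and 71.7 CPM with the empty vector. The groups did not overlap, and DAD1 rose by 0.51 on the log2 scale (SE 0.0400; edgeR, adjusted p = 1.17e-05), a higher log2 fold change than 96.3% of tested features had. It passed in all 12 alternatives. On the other side, OR6J1, OXA1L, SLC7A7 and MRPL52 did not pass, with log2 fold changes of 0.00, 0.02, 0.28 and -0.11, and MRPL52 was called lower without empty vector library 2 (adjusted p = 0.0373). OXA1L, which inserts proteins into the inner mitochondrial membrane, was at 162 ± 3.76 CPM with SPNS2 and 160 ± 5.85 CPM with the empty vector (SD, n = 3 each). The olfactory receptor genes OR10G2, OR4E2 and OR4E1 beyond DAD1 had 0 counts. Of the 8 neighbours, 5 could be tested and 1 of these was called, beside 24.5% of all features. The groups did not overlap for 2 of the 5, DAD1 and SLC7A7, beside 40.1% of all features. Whether the rise of DAD1 is tied to that of ABHD4 was not tested.

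**Figure D5:**
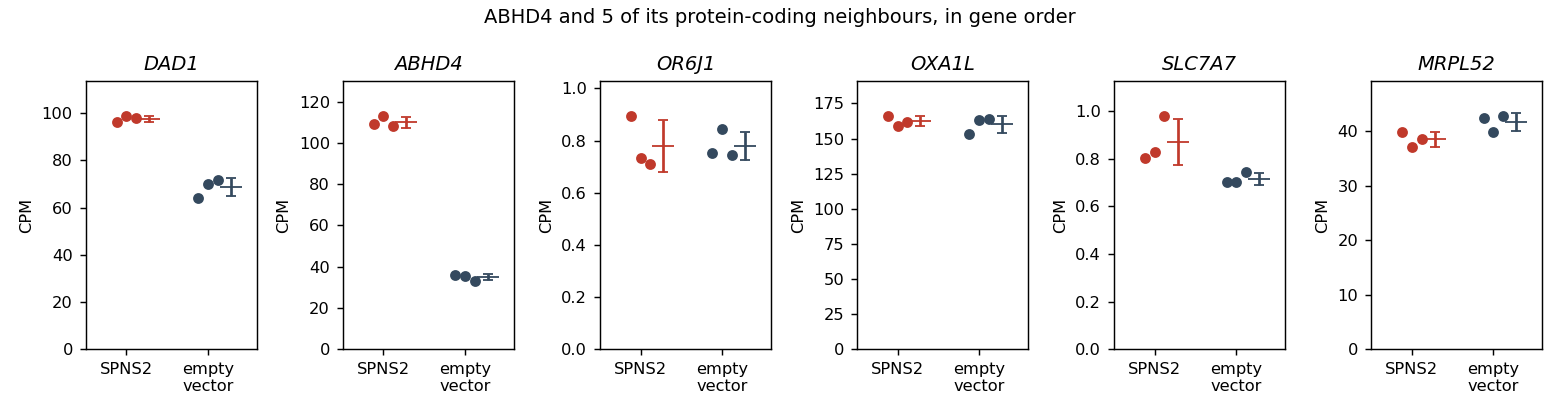
Level in CPM (vertical axes, linear, from 0) of ABHD4 and the 5 neighbours that could be tested, in gene order, with 1 point per library, SPNS2 on the left and empty vector on the right, and mean ± SD (n = 3) beside the points. DAD1 lies at 96.2 to 98.7 CPM with SPNS2 and at 64.2 to 71.7 CPM with the empty vector, and OXA1L overlaps between the groups.

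Genes with a pattern over the 6 libraries most like that of ABHD4 were found among 13269 features with a symbol. The measure was the root mean square difference of log2 CPM, with a prior count of 2, after centring each gene on its own mean. INHBA, a subunit of activin, was closest at 0.0951, followed by the actin-binding protein gene ABLIM1 at 0.117, the prohormone gene TRH at 0.138, SAMD3 at 0.159 and the mast cell tryptase gene TPSB2 at 0.168 on the log2 scale. ABLIM1 was at 50.4, 47.7 and 44.7 CPM with SPNS2 and 17.1, 17.6 and 17.3 CPM with the empty vector, and TRH at 304, 306 and 304 CPM with SPNS2 and 107, 114 and 119 CPM with the empty vector. INHBA and SAMD3 were low, with 183 and 131 counts over the 6 libraries, and reads of TPSB2 may be divided with its near-identical neighbour. The added prior count shrinks library differences most in low genes, so the places of INHBA and SAMD3 may depend on it. The fitted log2 fold change of INHBA was 1.9, against 1.66 for ABHD4. None of the 5 is an enzyme of N-acylethanolamine metabolism. They were selected for likeness, so their changes are a description.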

How the data were processed

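TruSeq Stranded mRNA libraries were made from RNA purified on QIAGEN RNeasy Plus columns, per the labels' protocols. The authors deposited estimated counts per gene from Salmon, per the submitters' processing notes, which name no version. The genome build, annotation and strand setting of that run are not stated there. Values were whole as deposited (0 were not), so rounding changed nothing. All 6 columns were used.

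Of 34370 Ensembl IDs, 34226 were given a symbol from a gene name table or GENCODE 29. RefSeq (GRCh38.p14) was used for names and for the order of neighbours. Low features were removed with filterByExpr (at least 10 counts, total of at least 15), TMM factors of 0.993 to 1.006 were applied, and groups were compared with the quasi-likelihood test of edgeR 4.0.16 in R 4.3.3, with group as the only term. P-values were adjusted by Benjamini-Hochberg over 13308 features, and 0.05 was the threshold. Standard errors were derived from F (absolute log2 fold change divided by its square root), and 95% intervals used the fit's degrees of freedom. Floors of 3 counts cover only counting error: without molecular identifiers, reads need not be independent molecules. Replicates differed beyond sampling noise (chi-square per degree of freedom 3.11 to 6.13), so each was kept as a sample.

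One marker list is not reported here. The 9 genes and the other lists were chosen with earlier results of these data known. Named genes were all 9, SPNS2, every called gene of each list reported, the receptors and diacylglycerol lipases, the 8 neighbours and the 5 genes most like ABHD4. Other genes named, such as ABHD5, the remaining acyltransferases, FABP3 and FABP7, were chosen after their values were seen. Alternatives were RLE scaling, library totals alone, no low-count filter, DESeq2 1.42.0, limma voom 3.58.1, each library left out and a replicate block. Counts were simulated for this design over 13308 features, with 50 features changed at each fold. On these, edgeR recovered 60% of 1.25-fold changes, 64% of 1.5-fold changes and 92% of 2-fold changes, with 9 false calls among 166. The data had 3263 calls, a far larger share, so the recovery there may differ.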

Additional observations from a re-analysis of the deposited data

How the results depend on the processing

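ABHD4 kept a log2 fold change of 1.62 to 1.68 and MGLL one of 0.81 to 1.01 over the 12 alternatives, and MGLL passed in each (adjusted p 0.000167 to 0.00713). The scalings moved the median of all features to at most 0.012. The count of features called ranged from 2246 to 2738 with a library left out, was 2543 with DESeq2 and 2723 with the replicate block, against 3263. Deviations of same-numbered libraries of the groups had correlations of 0.0606, -0.0911 and -0.235. With 3 libraries in each group, these values cannot show whether same-numbered libraries share a batch. SPNS2 library 1 correlated best with the empty vector library of its own number. SPNS2 libraries 2 and 3 each correlated best with an empty vector library of another number. The block changed no call among the 9 genes and left NAPEPLD at -1.59 (adjusted p = 0.124). With a library left out, the number of the 8 other enzymes that fell ranged from 0 to 1, and of pathway genes that rose from 1 to 2. The number of ABHD genes that fell ranged from 1 to 3, and of neighbours that fell from 0 to 1. Of the genes listed as lysophospholipases or phospholipases (below), the number that rose ranged from 1 to 2. FAAH ranged from -0.13 to 0.06 with a library left out and so changed sign. With DESeq2, 0 genes of the GDPD family were called (GDPD5 at an adjusted p of 0.0570). The cause of these shifts was not tested. Transcripts below about 5 CPM, which include GDPD1, FAAH and MGLL, are those where depth limits the precision most.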

Other observations

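Beyond the 9 enzymes, 20 genes listed by name or class as lysophospholipases or phospholipases A and D were followed. Of these, 17 were tested, 2 rose, none fell and 15 did not pass, which is 11.8% called beside 24.5% of all features, with a median log2 fold change of 0.06. PLD4, a lysosomal exonuclease of myeloid cells in spite of its name, was at 264, 265 and 269 CPM with SPNS2 and at 207, 211 and 210 CPM with the empty vector, and rose by 0.35 on the log2 scale (SE 0.0241; edgeR, adjusted p = 4.98e-06). Its relative PLD3 was at 189 ± 2.73 CPM with SPNS2 and 175 ± 5.20 CPM with the empty vector (SD, n = 3 each), and rose by 0.11 (adjusted p = 0.0175 by edgeR), a call lost without empty vector library 3 (adjusted p = 0.0583) or SPNS2 library 1 (adjusted p = 0.0762). The 7 tested lysophospholipases, among them PNPLA6, LYPLA1 and LYPLA2, did not pass, and neither did the 6 tested phospholipases A. LYPLAL1 was called higher without empty vector library 3 (adjusted p = 0.0288).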
